A study of Homo sapiens with 60 samples.

Results

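Aminoacyl-tRNA synthetases attach each amino acid to its transfer RNA (tRNA) and so supply both of the cell's translation systems. The 35 synthetase genes described here were taken by name from a list: 19 that encode cytosolic or dual-use enzymes and 16 that encode mitochondrial enzymes, whose symbols end in 2. The deposited table holds 60675 gene IDs, and all 35 members were found in it and passed the filter on low counts in every comparison. GARS1 and KARS1 each encode the enzyme of both compartments and are counted with the cytosolic group.

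Expression was measured by RNA sequencing of A549 cells, an established human lung carcinoma line, 24 h after addition of 1 of 8 herbal extracts or of dimethyl sulfoxide (DMSO) vehicle. The 60 libraries formed 25 groups: vehicle with n = 3, and a high, a medium and a low dose of each extract. Doses of 500, 100 and 20 µg/mL were used for the water extracts of the formulas Sayeok-tang (n = 3 at each dose) and Bojungikgi-tang (n = 2). All other extracts were made in 70% ethanol. Dried ginger (Zingiberis Rhizoma), fresh ginger (Zingiberis Rhizoma Recens) and Pinelliae Tuber had those same doses, while Scutellariae Radix was used at 190, 38 and 7.6 µg/mL, and n was 3 at each dose of these extracts. Coptidis Rhizoma at 110, 22 and 4.4 µg/mL and Zizyphi Fructus at 500, 100 and 20 µg/mL had 1 library per dose. Doses were lower, per the series text, for extracts whose inhibitory concentration lay under the usual top dose. For the vehicle that text gives 2% DMSO where the sample labels give 0.1%. Wortmannin, which that text also names, was not analysed here.

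In the cytosol, synthetases load the tRNAs that read messages of the nuclear genome. In mitochondria, a separate set of nuclear-encoded enzymes loads the tRNAs that read the few messages of the mitochondrial genome. Several cytosolic enzymes sit together in the multi-synthetase complex. Genes of many cytosolic synthetases are textbook targets of ATF4, a transcription factor made when the initiation factor eIF2 is phosphorylated, for example by GCN2, a kinase that senses uncharged tRNA. ATF4 and its C/EBP partners bind a composite element with the letters TGATGNAA.

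Total counts per library ran from 17.5 to 38.5 M, with 22421 to 24450 genes detected. Counts of the mitochondrial genome took 8.29% to 15.9% of a library, and the Coptidis Rhizoma libraries at the medium and low dose were the highest. All 5 epithelial markers were present, at a summed 3530 to 6560 CPM (counts per 1 M counts of a library, after scaling between libraries). Most of this sum came from KRT8 (1940 to 3670 CPM) and KRT18 (1540 to 2970 CPM), and EPCAM ran only from 3.84 to 6.54 CPM. Among leukocyte markers, PTPRC stayed at or below 0.0482 CPM, CD3E was at 0 in every library, and ITGAM ran from 0.751 to 2.27 CPM. CD68 ran from 5.09 to 16.9 CPM, 4 endothelial markers summed to at most 0.256 CPM, and COL1A1 was the only one of 5 fibroblast markers above 1 CPM. Between the low and high dose, CD68 rose with dried ginger (log2 change 1.21) and Sayeok-tang (0.57), and COL1A1 fell with dried ginger (-0.73), fresh ginger (-0.61), Scutellariae Radix (-0.52) and Sayeok-tang (-0.40). Among the epithelial markers, KRT8 fell in these 4 extracts (-0.21 to -0.63), KRT18 in both gingers and Sayeok-tang (-0.18 to -0.52) and CDH1 with Sayeok-tang (-0.20), while KRT19 rose with dried ginger (0.51) and Sayeok-tang (0.23). No marker was called with Bojungikgi-tang or Pinelliae Tuber. The part of these shifts in the results below was not tested. In bulk samples such as these, fewer cells of a kind and less RNA per cell cannot be told apart.

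Vehicle-treated cells expressed the cytosolic enzymes at higher levels per kb of annotated exon than the mitochondrial ones. This length joins all annotated exons of a gene and can exceed that of the transcript in the cells, so the order of members depends on it. The median level was 38.9 CPM per kb over the 19 cytosolic and dual members and 7.22 CPM per kb over the 16 mitochondrial members. AARS1, which loads alanine, was highest at 66.1 ± 1.90 CPM per kb (SD, n = 3). Next came GARS1 (glycine) at 57.5 ± 1.40, IARS1 (isoleucine) at 57.5 ± 1.55, IARS2 at 56.0 ± 0.773 and KARS1 (lysine) at 54.8 ± 1.02 CPM per kb. Neighbours in this order from GARS1 to KARS1 differed by less than the sum of their SDs. IARS2, the mitochondrial isoleucine enzyme, was the only mitochondrial member among the 10 highest. By this measure CARS1 (cysteine), with 10037 exon bases, was the lowest cytosolic member at 7.17 ± 0.0280 CPM per kb. Without division by length, FARSA at 68.0 CPM stood below CARS1 at 72.0 CPM. VARS2, the mitochondrial valine enzyme, was the lowest of all per kb at 2.31 ± 0.0768 CPM per kb.

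**Figure D1:**
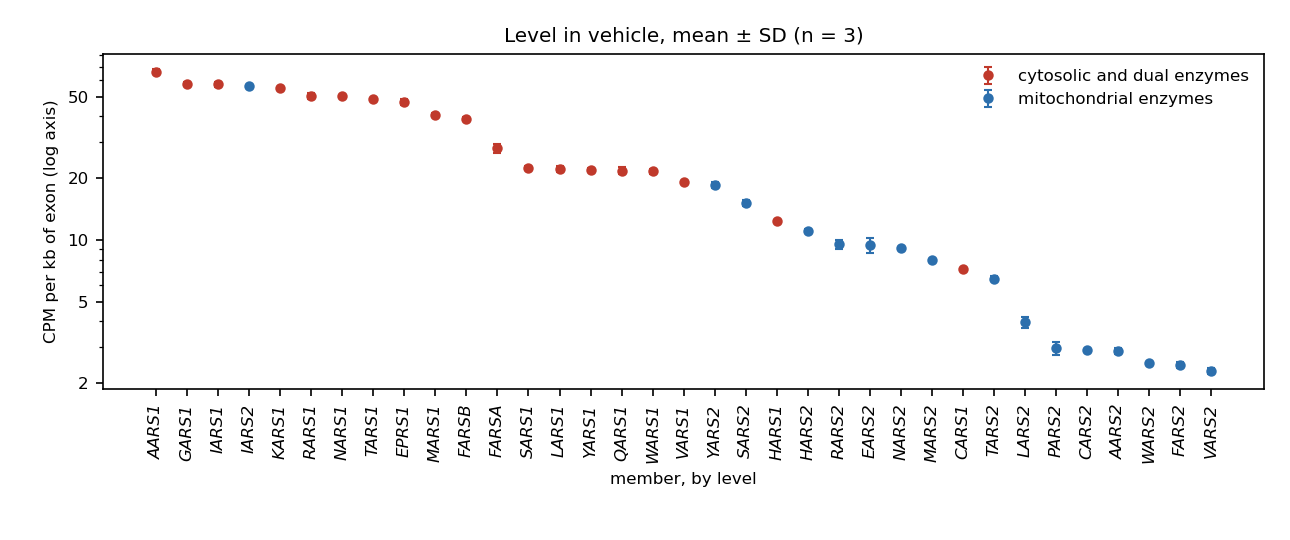
Level of each of the 35 members in the 3 vehicle libraries, as mean ± SD of CPM per kb of exon on a log axis, ordered from highest to lowest. Of the 10 highest members, 9 are cytosolic or dual, and the mitochondrial IARS2 stands among them at 56.0 CPM per kb.

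The first question was how the members changed between the low and the high dose of the same extract. This comparison leaves out the vehicle means, though the vehicle libraries entered each fit. Dried ginger changed 16 of 35 members (edgeR quasi-likelihood test, adjusted p under 0.05 over all genes tested, as in every comparison below). All 11 that rose were cytosolic or dual: AARS1, CARS1, EPRS1, GARS1, IARS1, LARS1, MARS1, NARS1, SARS1, WARS1 and YARS1. RARS1, KARS1 and the mitochondrial AARS2, EARS2 and IARS2 fell. Over all 16628 genes tested, 16.8% rose and 16% fell, so a large part of the transcriptome moved in this comparison. The median log2 change was 0.31 over the cytosolic and dual members, -0.04 over the mitochondrial members and 0.00 over all genes.

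GARS1, at chr7:30594681-30634033 (GRCh38, GENCODE 29), showed the largest change in dried ginger. Its 3 high-dose libraries read 379.5, 368 and 385 CPM, and its 3 low-dose libraries 225, 224 and 230.5 CPM. No high-dose library came near a low-dose one, and the means of 377 ± 8.62 and 226 ± 3.66 CPM (SD, n = 3) differed 1.67-fold (log2 change 0.74 ± 0.04 SE, adjusted p = 6.46e-16). SARS1, the serine enzyme at chr1:109213918-109238169, read 124.5, 127 and 128 CPM at the high dose and 78.95, 85.9 and 80.85 CPM at the low dose. The groups did not overlap, and the fold was 1.54 (0.63 ± 0.04 SE, adjusted p = 2.99e-13). CARS1, the cysteine enzyme at chr11:3000922-3057613, read 109.5, 109 and 104 CPM at the high dose and 68.3, 68.55 and 72.3 CPM at the low dose. Its high-dose libraries again all lay above the low-dose ones (0.62 ± 0.04 SE, adjusted p = 6.34e-14).

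MARS1, which loads methionine, lies at chr12:57475445-57517569 and overlaps DDIT3 on the other strand. It read 394, 393 and 398.5 CPM at the high dose of dried ginger and 256.5, 262 and 270 CPM at the low dose (0.59 ± 0.03 SE, adjusted p = 3.86e-14), without overlap. DDIT3, a stress-induced transcription factor of low abundance (7.66 to 38.1 CPM over all libraries), rose by 1.21 on the log2 scale in the same comparison. The strand setting of the counting is not given in the sources used here, and whether reads of DDIT3 entered the MARS1 count was not tested. AARS1 rose by 0.57 ± 0.04 and WARS1 (tryptophan) by 0.52 ± 0.04 (SE, log2 scale). EPRS1 (glutamate and proline), IARS1 and YARS1 (tyrosine) rose by 0.41, 0.41 and 0.38. The smallest rises were those of NARS1 (asparagine), 0.31 ± 0.04, and LARS1 (leucine), 0.20 ± 0.04.

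Because these members moved together, their promoter windows were searched for the ATF4 element, with the letters TGATGNAA on either strand. The windows are those of RefSeq on GRCh38.p14, from 250 bases before a start to 50 bases from it on. For 30 members a window was in the table, and LARS1, VARS1, YARS1, AARS2 and VARS2 had none. A match was present in 8 of the 30, against 4.46% of the 27305 genes in the table (3.62% of 35116 windows). Among the cytosolic and dual members the count was 7 of 16, and among the mitochondrial members 1 of 14. The narrower form TGATGCAA was in 6 members, all cytosolic, against 1.08% of genes. Of the 9 cytosolic and dual members that rose in dried ginger and had a window, 6 had a match, while EPRS1, SARS1 and WARS1 had none in it. Neither KARS1 nor RARS1, which fell, had one, and of the 5 that were not called only TARS1 did. YARS2, the mitochondrial member with a match, was not called in dried ginger and fell with Scutellariae Radix. These are descriptions of letters in a window, and binding was not measured. The sequences below are shown because they carry the match. Each is written in the direction of transcription, with the match in capitals, which read TTNCATCA where the element lies on the opposite strand.

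GARS1 (chr7:30594810-30594857, + strand): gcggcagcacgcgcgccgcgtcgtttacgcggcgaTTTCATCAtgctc
CARS1 (chr11:3057413-3057460, - strand): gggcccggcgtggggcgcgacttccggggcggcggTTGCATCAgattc
MARS1 (chr12:57488029-57488076, + strand): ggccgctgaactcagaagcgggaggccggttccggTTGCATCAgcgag
AARS1 (chr16:70289681-70289728, - strand): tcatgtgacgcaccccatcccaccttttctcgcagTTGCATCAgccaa
IARS1 (chr9:92293698-92293745, - strand): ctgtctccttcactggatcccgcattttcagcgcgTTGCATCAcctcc
NARS1 (chr18:57621810-57621857, - strand): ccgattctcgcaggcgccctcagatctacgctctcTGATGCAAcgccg
TARS1 (chr5:33440932-33440979, + strand): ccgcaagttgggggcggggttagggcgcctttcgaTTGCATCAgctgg
YARS2 (chr12:32756082-32756129, - strand): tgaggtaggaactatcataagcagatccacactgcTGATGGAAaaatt

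In CARS1, MARS1, IARS1 and GARS1 the match lay within 33 bases before the start or across it: from base -2 to 6 in CARS1, -4 to 4 in MARS1, -13 to -6 in IARS1 and -33 to -26 in GARS1. TARS1 (3 to 10) and NARS1 (15 to 22) held it just after the start. AARS1 (-187 to -180) and the mitochondrial YARS2 (-197 to -190) held it farther upstream. Of the 39 windows of members, 28 are placed at the RefSeq start of the gene, and the others belong to further transcript starts.

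Scutellariae Radix, at a lower top dose than dried ginger, gave the largest number of changes between its high and low dose: 14 members rose and 5 fell, where 15.5% and 15.6% of 16582 genes did. All 11 members that rose in dried ginger were among the 14, which is 78.6% of them. QARS1 (glutamine), TARS1 (threonine) and the mitochondrial threonine enzyme TARS2 made up the rest. The 5 that fell were RARS1, HARS1, EARS2, IARS2 and YARS2, of which RARS1, EARS2 and IARS2 also fell in dried ginger. The dose groups of these comparisons share no library, but both fits held the same vehicle libraries. How many of all genes rose or fell in both extracts was not counted. The median log2 change was 0.32 over the cytosolic and dual members, -0.07 over the mitochondrial members and 0.00 over all genes.

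SARS1 changed most with Scutellariae Radix. Its high-dose libraries read 140, 139 and 139 CPM and its low-dose libraries 80.6, 82.45 and 81.4 CPM, a 1.71-fold difference (0.78 ± 0.04 SE, adjusted p = 2.89e-20). GARS1 read 387.5, 408 and 387 CPM at the high dose and 238, 230 and 232 CPM at the low dose, a 1.69-fold difference (0.76 ± 0.03 SE, adjusted p = 2.81e-21). For both genes the groups lay far apart. AARS1 rose by 0.73 ± 0.03, CARS1 by 0.69 ± 0.04, MARS1 by 0.59 ± 0.03 and WARS1 by 0.58 ± 0.04 on the log2 scale. QARS1 (0.09 ± 0.04), TARS1 (0.08 ± 0.03) and TARS2 (0.16 ± 0.06) were the smallest rises. These 3 calls were lost in 10, 7 and 7 of 12 refits with other settings or with 1 library left out, so the larger set of rising members rests on small differences there. DDIT3 rose by 1.98 in this comparison, beside MARS1.

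Fresh ginger raised 10 members between its low and high dose and lowered none, where 1.72% of 16628 genes rose and 1.95% fell. The 10 were the dried ginger set without LARS1, at smaller sizes. Both gingers were in 1 fit, and the share of all genes that rose in both was not counted. GARS1 read 291, 287 and 296 CPM at the high dose and 226, 217 and 232 CPM at the low dose, a 1.29-fold difference (0.37 ± 0.04 SE, adjusted p = 2.34e-08). CARS1 read 89.0, 86.85 and 88.4 CPM at the high dose and 70.6, 70.1 and 68.55 CPM at the low dose (0.34 ± 0.04 SE, adjusted p = 4.22e-07). Neither gene's groups overlapped. SARS1, MARS1 and AARS1 followed at 0.32, 0.28 and 0.25. The WARS1 call (0.16 ± 0.04, adjusted p = 0.0167) was lost without fresh ginger high replicate 1, low replicate 1 or low replicate 3, and its adjusted p then reached 0.144.

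Sayeok-tang, a formula, raised 8 members and lowered none, where 3.82% and 3.77% of 16721 genes did: AARS1, CARS1, EPRS1, GARS1, IARS1, MARS1, SARS1 and YARS1. All 8 had also risen in both gingers and in Scutellariae Radix. The dose groups of those extracts share no library with Sayeok-tang, but every fit held the same 3 vehicle libraries. The share of all genes that rose in these extracts together was not counted. GARS1 read 263.5, 271 and 274 CPM at the high dose and 232, 229 and 225 CPM at the low dose (0.23 ± 0.03 SE, adjusted p = 6.67e-07). MARS1 read 310.1, 305 and 312 CPM against 267, 274 and 256 CPM (0.21 ± 0.03 SE, adjusted p = 3.51e-06). In both genes every high-dose library lay above every low-dose one, at folds of 1.18 and 1.16. The EPRS1 call (0.12 ± 0.03, adjusted p = 0.0160) was lost without high replicate 2 or low replicate 3, with an adjusted p of up to 0.108, and that of IARS1 (0.13 ± 0.03) without low replicate 1, with an adjusted p of 0.0586.

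Bojungikgi-tang and Pinelliae Tuber gave 1 call and none. With Bojungikgi-tang, YARS1 alone rose, where 0.257% of 16721 genes did and 0.455% fell. It read 179 and 184 CPM at the high dose and 162 and 162 CPM at the low dose (0.16 ± 0.04 SE, adjusted p = 0.0218). This call was lost when any of the 4 libraries was left out. The vehicle libraries ran from 176.5 to 184 CPM for YARS1, around its high-dose values. Its low dose was called lower than vehicle, a call that rests on 2 libraries at that dose. Pinelliae Tuber changed none of the 35 members and 11 of 16582 genes (0.0603% higher, 0.00603% lower). The log2 changes of the cytosolic and dual members lay between -0.03 and 0.16 with Bojungikgi-tang and between -0.03 and 0.11 with Pinelliae Tuber. Every high-dose library lay above every low-dose one for 10 of these 19 members with Bojungikgi-tang and for 9 with Pinelliae Tuber, and for none was it the reverse. Of 10973 genes at 5 CPM or more, 21.6% lay above and 19.7% below in this way with Bojungikgi-tang (2 libraries against 2), and 7.66% and 6.94% with Pinelliae Tuber.

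**Figure D2:**
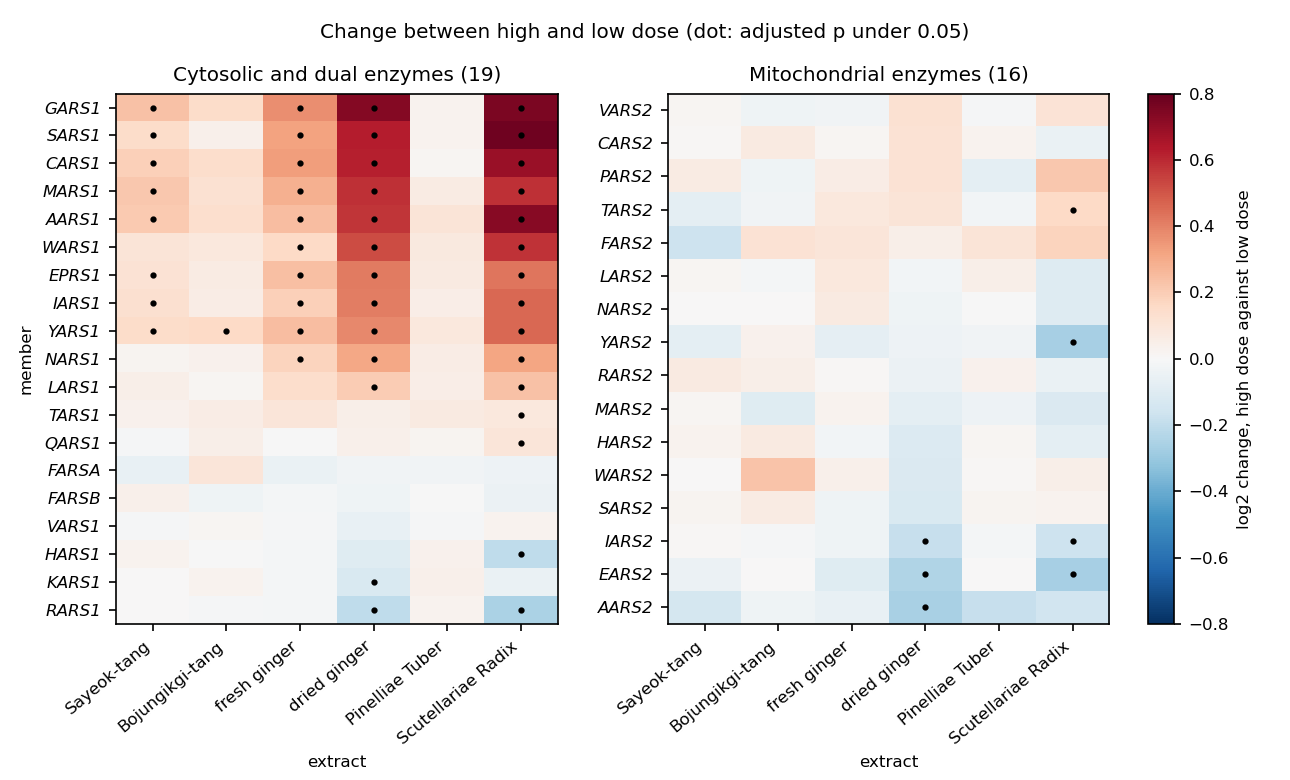
Log2 change of each member (rows, cytosolic and dual on the left, mitochondrial on the right) between the high and the low dose of the 6 replicated extracts (columns), with a dot where the adjusted p was under 0.05. The upper rows of the left panel are red in dried ginger and Scutellariae Radix, paler in fresh ginger and Sayeok-tang, and close to 0 in Bojungikgi-tang and Pinelliae Tuber.

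The medium dose was compared with the doses on either side for the members that rose. In dried ginger, all 3 medium-dose libraries lay below all high-dose ones for 11 of 11 members and above all low-dose ones for 6 of 11. In fresh ginger these counts were 10 and 6 of 10, in Sayeok-tang 8 and 2 of 8, and in Scutellariae Radix 13 and 4 of 14. These members were chosen for being higher at the high than at the low dose, which favours such an order. The same counts over all genes were not taken, so no conclusion about the members as a set is drawn from them. GARS1 read 250.6, 244 and 256 CPM at the medium dose of dried ginger, just above its low-dose libraries. SARS1 read 83.9, 86.7 and 84.8 CPM there, overlapping its low-dose libraries.

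**Figure D3:**
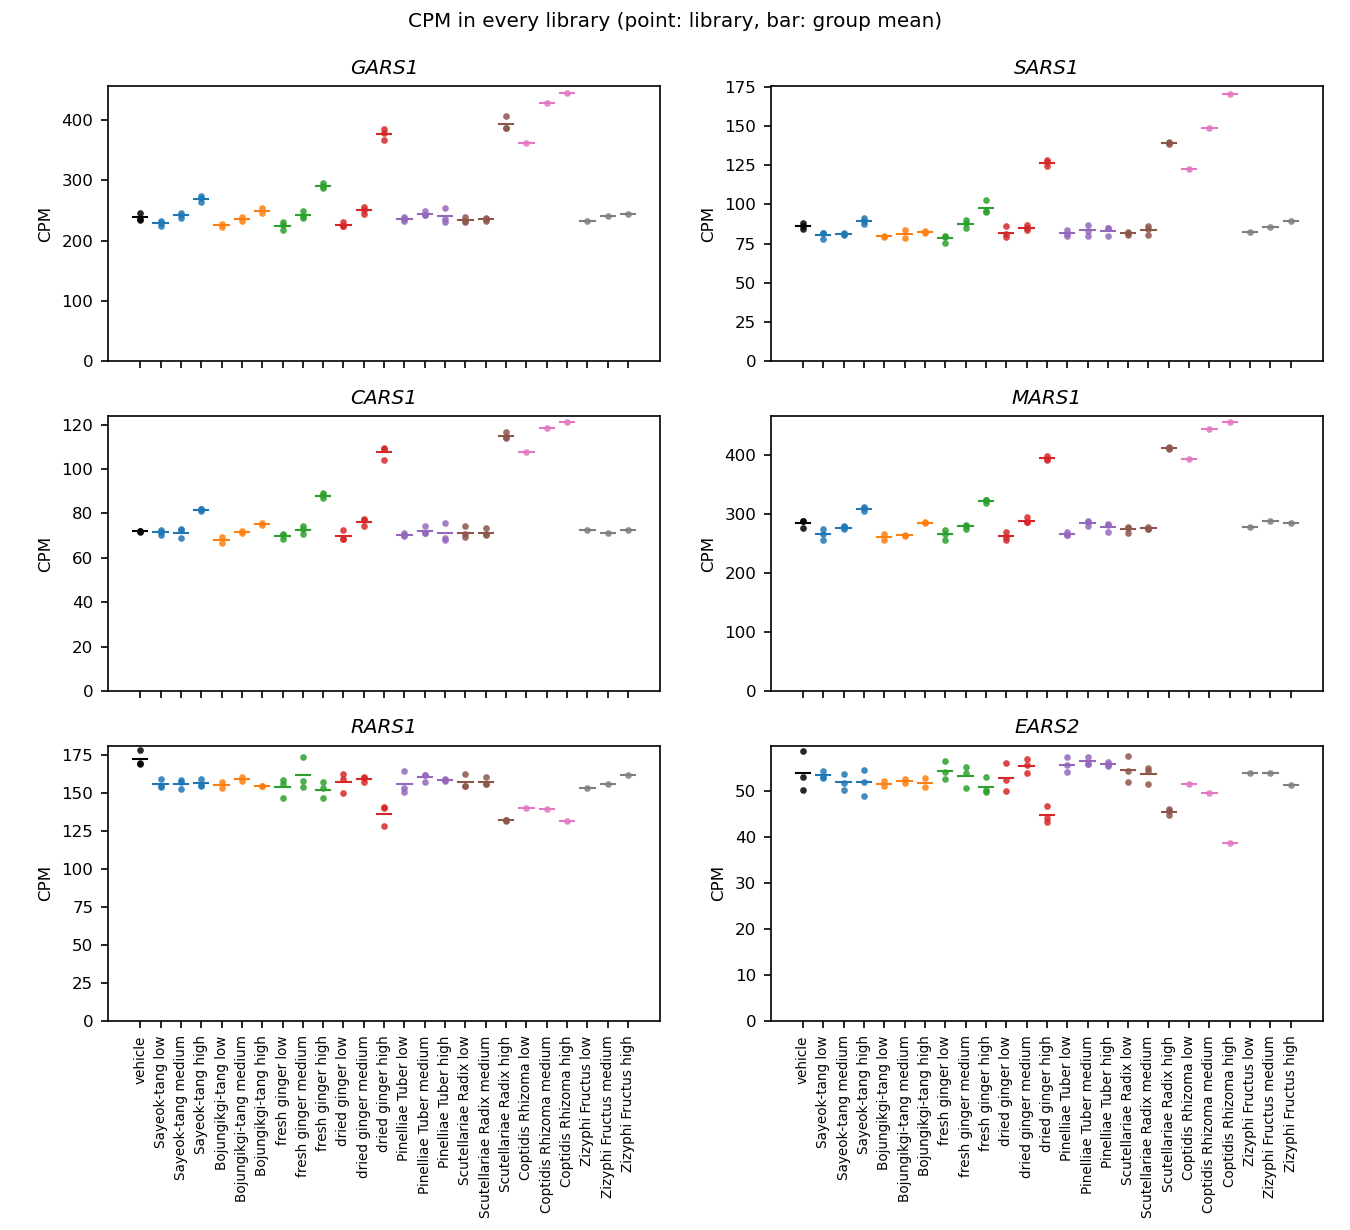
CPM of GARS1, SARS1, CARS1, MARS1, RARS1 and EARS2 in every library (points) with group means (bars), from vehicle on the left through the 8 extracts, each at low, medium and high dose. GARS1 stands between 367.9 and 384.7 CPM at the high dose of dried ginger, above all its vehicle libraries, while EARS2 stands at 43.36 to 46.69 CPM there, below all of them.

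Not every cytosolic enzyme took part. RARS1, the arginine enzyme at chr5:168486445-168519299, read 141, 128 and 140 CPM at the high dose of dried ginger and 150.1, 159 and 163 CPM at the low dose (-0.21 ± 0.05 SE, adjusted p = 7.55e-04). With Scutellariae Radix it read 132, 132 and 132 CPM against 163, 155 and 155 CPM (-0.25 ± 0.03 SE, adjusted p = 1.355e-07). Both pairs of groups were separate, and both calls held in all 12 refits. KARS1, the dual lysine enzyme, read 200.1, 189 and 206 CPM at the high dose of dried ginger and 214, 212 and 222 CPM at the low dose (-0.12 ± 0.04 SE, adjusted p = 0.00867). That call was lost without dried ginger high replicate 2 or low replicate 3, and without the filter on low counts (adjusted p of up to 0.0954). With Scutellariae Radix, KARS1 read 208, 215 and 206 CPM against 212.5, 220 and 222.5 CPM, overlapping groups (-0.06 ± 0.03, adjusted p = 0.201). GARS1, the other dual member, rose in both extracts.

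HARS1, the cytosolic histidine enzyme, and HARS2, the mitochondrial one, lie head to head on chromosome 5 and overlap in the annotation. In RefSeq their starts are 84 bases apart, and the sequence between them is shown because it can serve both genes.

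HARS1 to HARS2 (chr5:140691371-140691454, + strand): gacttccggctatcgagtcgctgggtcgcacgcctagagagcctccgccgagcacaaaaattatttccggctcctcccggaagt

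HARS1 fell with Scutellariae Radix, from 96.6, 94.8 and 96.9 CPM at the low dose to 83.0, 84.7 and 82.4 CPM at the high dose (-0.20 ± 0.04 SE, adjusted p = 1.07e-04), with no overlap. HARS2 read 41.5, 42.5 and 37.3 CPM at the low dose and 38.3, 37.3 and 38.85 CPM at the high dose, with overlap (-0.08 ± 0.05 SE, adjusted p = 0.271). In dried ginger neither was called: HARS1 differed by -0.10 ± 0.04 (adjusted p = 0.0734) and HARS2 by -0.11 ± 0.05 (adjusted p = 0.120). FARSA and FARSB, the catalytic and the other subunit of the cytosolic phenylalanine enzyme, and VARS1 (valine) were the cytosolic members called in none of the 6 high against low comparisons. FARSA read 61.6, 62.0 and 59.65 CPM at the high dose of dried ginger and 60.2, 61.3 and 65.4 CPM at the low dose (-0.03 ± 0.05 SE). FARSB read 121.5, 119 and 130 CPM against 121.5, 129 and 129.5 CPM (-0.03 ± 0.04 SE). The groups overlapped for both subunits.

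Of the 16 mitochondrial members, 11 were called in none of the 6 high against low comparisons. In dried ginger 3 fell and none rose, and with Scutellariae Radix 3 fell and 1 rose, so that the 3 of 16 that fell stand near the share of all genes that fell (16% and 15.6%). In the other 4 extracts none was called. EARS2, the mitochondrial glutamate enzyme at chr16:23522014-23557731, read 43.4, 44.2 and 46.7 CPM at the high dose of dried ginger and 49.99, 52.5 and 56.1 CPM at the low dose (-0.24 ± 0.05 SE, adjusted p = 8.76e-04). With Scutellariae Radix it read 44.8, 45.6 and 46.0 CPM against 52.0, 57.6 and 54.4 CPM (-0.26 ± 0.05 SE, adjusted p = 3.20e-05). In both extracts the high-dose libraries all lay below the low-dose ones. IARS2 read 205, 191 and 212 CPM at the high dose of dried ginger and 224.5, 227 and 242 CPM at the low dose (-0.19 ± 0.05 SE, adjusted p = 0.002295). With Scutellariae Radix its values were 214, 204 and 211 CPM against 247, 235.5 and 223.5 CPM (-0.16 ± 0.03 SE, adjusted p = 1.39e-04), again without overlap.

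AARS2, the mitochondrial alanine enzyme, is among the members of low abundance. It read 10.6, 11.4 and 10.8 CPM at the high dose of dried ginger and 13.8, 13.0 and 12.3 CPM at the low dose (-0.26 ± 0.09 SE, adjusted p = 0.0208). This call was lost without dried ginger high replicate 1, high replicate 3, low replicate 1 or low replicate 2, with an adjusted p of up to 0.101. YARS2, the mitochondrial tyrosine enzyme, fell with Scutellariae Radix from 35.7, 38.8 and 35.7 CPM to 31.3, 28.5 and 31.8 CPM (-0.26 ± 0.05 SE, adjusted p = 1.55e-04), and the groups were separate.

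Members that load the same amino acid in the 2 compartments form 16 pairs, with EPRS1 set beside both EARS2 and PARS2. In dried ginger, the cytosolic member rose while its mitochondrial partner was not called in 8 pairs, and in 3 pairs, AARS1 and AARS2, EPRS1 and EARS2, and IARS1 and IARS2, the cytosolic member rose and the mitochondrial one fell. With Scutellariae Radix these counts were 8 and 3, the 3 being EPRS1 and EARS2, IARS1 and IARS2, and YARS1 and YARS2. There TARS1 and TARS2 both rose. The log2 change of the cytosolic member was above that of its partner in 12 of the 16 pairs with dried ginger, 11 with Scutellariae Radix, 14 each with fresh ginger and Sayeok-tang, 13 with Pinelliae Tuber and 11 with Bojungikgi-tang. These counts are no higher in the 2 extracts with the most calls than in those with few or none. Differences within a pair were not tested.

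**Figure D4:**
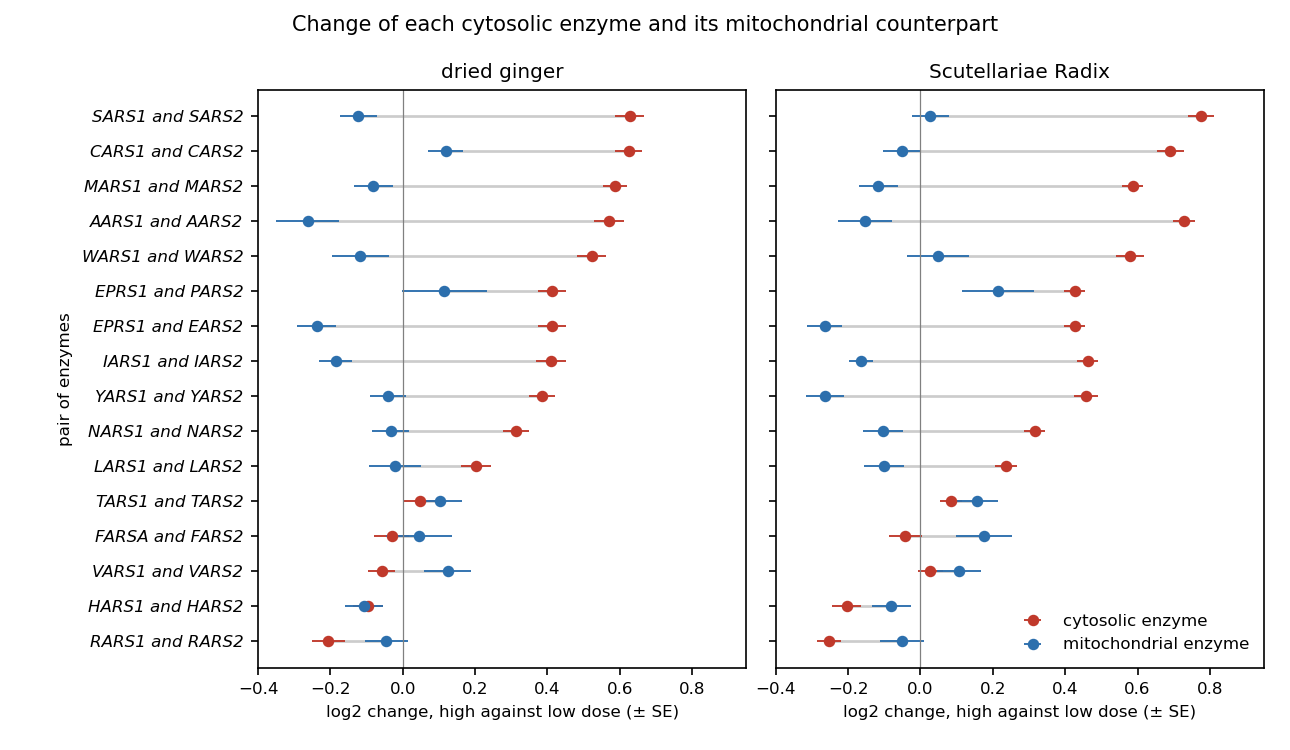
Log2 change (± SE) between high and low dose for each cytosolic member (red) and its mitochondrial counterpart (blue), in dried ginger (left) and Scutellariae Radix (right), ordered by the cytosolic change in dried ginger. Red points of SARS1, CARS1, MARS1, AARS1 and WARS1 stand above 0.5 in both panels, while the blue points of all pairs lie between -0.26 and 0.22.

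The enzymes of the multi-synthetase complex were found among the members that rose and among those that fell. The 7 counted here are EPRS1, IARS1, KARS1, LARS1, MARS1, QARS1 and RARS1. In dried ginger 4 of them rose and 2 fell, and 7 of the 12 cytosolic and dual members outside the complex rose. With Scutellariae Radix 5 of 7 rose and 1 fell, against 8 and 1 of the 12. The complex's 3 scaffold genes AIMP1, AIMP2 and EEF1E1 had none called in dried ginger, and EEF1E1 alone fell with Scutellariae Radix (-0.15 ± 0.05 SE, adjusted p = 0.0255). By the 2 structural classes of synthetases, 6 of 9 cytosolic class I members rose in dried ginger and 4 of 9 class II members did, apart from EPRS1, which has a domain of each class. With Scutellariae Radix these counts were 7 and 5. No difference between such subsets was tested.

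Dried and fresh ginger were compared at matched doses. At 500 µg/mL, 10 cytosolic members were higher in dried ginger and 5 members were lower, where 11.3% of 16628 genes were higher and 11.3% lower. GARS1 and SARS1 were 0.37 ± 0.04 higher on the log2 scale (adjusted p = 2.93e-09 and 2.53e-08). SARS1 read 95.9, 94.8 and 102.6 CPM in fresh ginger at this dose. For both genes the libraries of the extracts did not overlap. AARS1, CARS1, MARS1 and WARS1 were higher by 0.29 to 0.33. The 5 lower members were KARS1, RARS1, AARS2, EARS2 and IARS2. All 5 of these calls were lost when some single libraries were left out, AARS2 in each of the 6 such refits. The count of called members then ran from 10 to 14. At 100 µg/mL no member was called, where 0.192% of genes were higher and 0.289% lower, and at 20 µg/mL no gene at all was called (0 of 16628, 0% in each direction). At the high dose of Sayeok-tang against Bojungikgi-tang, both at 500 µg/mL, AARS1 alone was higher (0.16 ± 0.04 SE, adjusted p = 0.009813), where 1.09% of genes were higher and 0.957% lower. This call was lost without Bojungikgi-tang high replicate 2 or 3 or Sayeok-tang high replicate 2, which leaves 0.

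Comparisons with vehicle have limits. Vehicle and extract libraries carry different set numbers in the labels, so handling cannot be told apart from treatment in these comparisons. The labels give a DMSO percentage for vehicle only, so any difference in solvent cannot be told apart from treatment either. All of them use the same 3 vehicle libraries, so calls in different extracts are not separate observations. The high dose of dried ginger raised 11 members and lowered 9, where 20.2% and 19% of genes did, and Scutellariae Radix raised 13 and lowered 9 (20.2% and 20%). Fresh ginger raised 10 and lowered 4 (6.21% and 7.16%), and Sayeok-tang raised 8 and lowered 4 (9.39% and 9.53%). Bojungikgi-tang lowered RARS1 only (1.39% higher, 2.33% lower). Pinelliae Tuber raised IARS1 and lowered RARS1 and YARS2 (3.85% and 5.08%). Of these counts, 12 for Sayeok-tang fell to 7 without vehicle replicate 3 or its own high replicate 2, and 14 for fresh ginger to 7 without vehicle replicate 3. The count of 3 for Pinelliae Tuber became 0 or 1 without vehicle replicate 2 or 3 or any 1 of its own 3 libraries, and that of 1 for Bojungikgi-tang became 0 without either of its libraries. The members that rose against vehicle in dried ginger were the same 11 that rose against its low dose, GARS1 by 0.66 ± 0.04 and SARS1 by 0.55 ± 0.04. In fresh ginger and Sayeok-tang the 2 sets differed. Against vehicle, LARS1 was called higher in both extracts, while NARS1 in fresh ginger and SARS1 in Sayeok-tang were not called. These LARS1 calls were lost in 4 of 12 refits for fresh ginger and 5 of 12 for Sayeok-tang. The levels at the low dose of dried ginger were not called different from vehicle for any member.

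RARS1 was the member most often lower than vehicle. Vehicle libraries read 170, 169 and 178 CPM, and all comparisons below use these same libraries. The high-dose libraries of the 6 replicated extracts ran from 128 to 159 CPM, so that none overlapped vehicle, and RARS1 was called lower in all 6, with log2 differences from -0.12 ± 0.03 (Pinelliae Tuber) to -0.38 ± 0.03 (Scutellariae Radix). It was also lower at the low dose in 5 of 6 extracts (-0.13 to -0.16). Of these 5 calls, that of Sayeok-tang held in all refits. The others were lost without 1 library: Bojungikgi-tang without its replicate 2, fresh ginger without vehicle replicate 2 or 3 or its own replicate 1 or 2, and Pinelliae Tuber and Scutellariae Radix each without vehicle replicate 3 or its own replicate 2. The calls at all 3 doses of Sayeok-tang and at the high dose of dried ginger and Scutellariae Radix held in all 12 refits. At the high dose, that of fresh ginger was lost without vehicle replicate 3 or its own replicate 2, that of Pinelliae Tuber without vehicle replicate 3 or its own replicate 1 or 2, and that of Bojungikgi-tang without either of its libraries. YARS2 was called lower in 5 of 6 extracts at the high dose. It read 38.8, 39.3 and 41.2 CPM in vehicle, and its high-dose libraries ran from 28.5 to 37.6 CPM. Its differences at the high dose ran from -0.12 ± 0.06 (Bojungikgi-tang, not called) to -0.38 ± 0.05 (Scutellariae Radix). The Sayeok-tang call was lost without vehicle replicate 3 or its own replicate 1 or 2, and the Pinelliae Tuber call in 8 of 12 refits, among them those without vehicle replicate 2 or 3 or any 1 of its own libraries.

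At the medium dose, 1 member was called higher than vehicle (IARS1, with Scutellariae Radix) and 13 calls were lower over the 6 extracts. At the low dose none was higher and 16 calls were lower. The shares of all genes called higher and lower at the medium dose were 4.78% and 6% for Sayeok-tang, 0.664% and 1.28% for Bojungikgi-tang, 0.229% and 0.541% for fresh ginger, 2.65% and 3.5% for dried ginger, 2.84% and 4.33% for Pinelliae Tuber and 3.4% and 5.51% for Scutellariae Radix. At the low dose they were 3.58% and 4.76%, 2.75% and 4.19%, 2.84% and 3.63%, 1.46% and 2.14%, 2.05% and 3.46%, and 3.87% and 5.02%, in the same order of extracts. The calls fell on RARS1 (3 and 5 extracts), QARS1 (2 and 3), YARS2 (4 and 0), FARS2 (2 and 1), AARS1, MARS1, YARS1, SARS1 and NARS2. Of these members, AARS1, MARS1, SARS1 and YARS1 also rose at the high dose of some extracts. Each of their lower calls was lost in some refits. For AARS1 with Bojungikgi-tang this held in 1 of 11 at the low dose and 8 of 11 at the medium dose. MARS1 at the low dose of Sayeok-tang and SARS1 at that of fresh ginger lost theirs in 6 of 12.

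**Figure D5:**
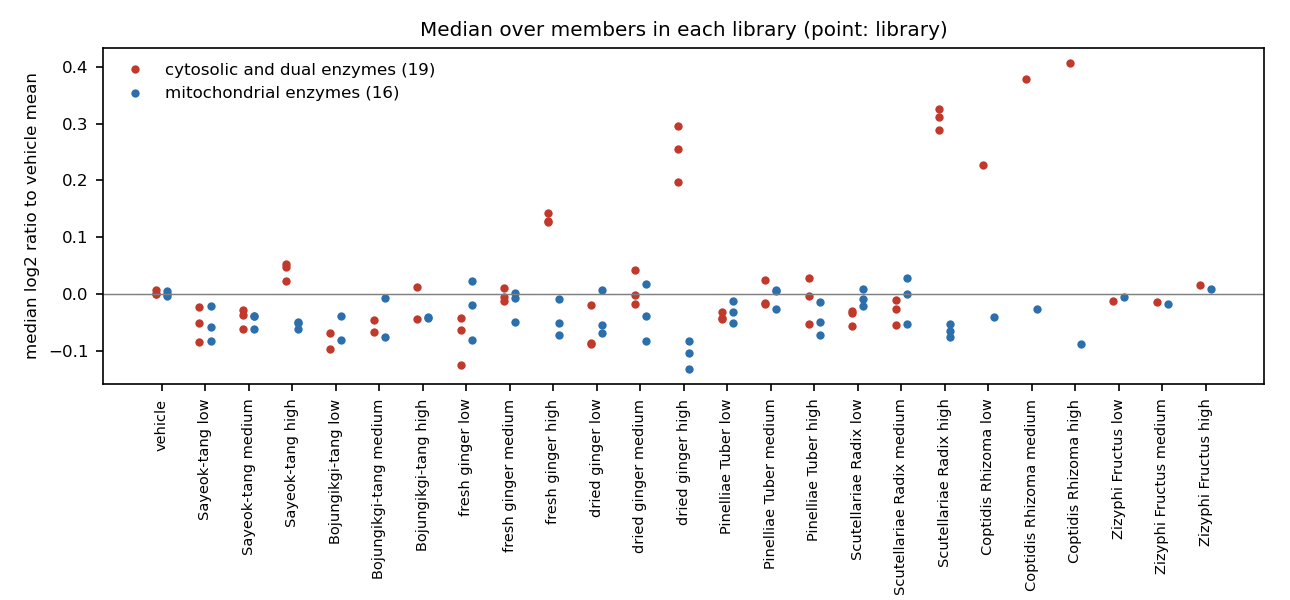
Median over the 19 cytosolic and dual members (red) and over the 16 mitochondrial members (blue) of the log2 ratio to the vehicle mean, for every library. Red points reach 0.1981 to 0.2953 in dried ginger high and 0.2886 to 0.3256 in Scutellariae Radix high, where the blue points lie below 0, and the highest red point is that of the Coptidis Rhizoma high dose at 0.4064.

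Coptidis Rhizoma had 1 library per dose, so its values carry no replicate check and no test. A member is counted where it differed at least 1.5-fold from the vehicle mean (after adding 0.5 CPM) and lay outside the range of the 3 vehicle libraries. At the high dose 7 of 19 cytosolic and dual members were higher by this rule, at the medium dose 5 and at the low dose 1, where 3.8%, 1.67% and 0.597% of the genes at 5 CPM or more were. No mitochondrial member passed it, and no member was lower by it, where 3.36%, 1.11% and 0.266% of genes were. GARS1 read 445, 428 and 361 CPM at the high, medium and low dose, against 234, 245 and 237 CPM in vehicle. SARS1 read 171, 148.5 and 122 CPM against 84.55, 88.2 and 86.3 CPM. Both genes followed the order of the doses and are among the 10 of 19 cytosolic and dual members that did. The share of all genes in this order was not counted. The other members past the rule at the high dose were AARS1, CARS1, IARS1, MARS1 and WARS1. A wider set of 12 lay above all vehicle libraries at each of the 3 doses, namely the 11 that rose in dried ginger and TARS1, while RARS1 (132, 139 and 140 CPM) and HARS1 lay below them. Of the 16 mitochondrial members, PARS2 lay above and CARS2, IARS2 and YARS2 below at all 3 doses. Of 10973 genes at 5 CPM or more, 21.7% lay above all vehicle libraries at all 3 doses and 24% below. At a rule of 2-fold no member passed.

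The Coptidis Rhizoma libraries at the medium and low dose held 15.9% and 15.0% counts of the mitochondrial genome, against 8.58% to 9.38% in vehicle, and the high-dose library held 9.92%. The part of this in the results was not tested. With Zizyphi Fructus, also at 1 library per dose, no member passed the rule at any dose, where 0.092%, 0.0735% and 0.0919% of genes were higher and 0.101%, 0.0735% and 0.129% lower. GARS1 read 244, 242 and 232 CPM at its high, medium and low dose and SARS1 read 89.2, 85.35 and 82.6 CPM at these doses. By position alone, IARS1 and AARS2 lay above all vehicle libraries at each dose of Zizyphi Fructus, and NARS1, QARS1, RARS1, YARS1, CARS2, FARS2, NARS2 and YARS2 lay below, where 10.4% and 11.9% of genes did.

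Together the cytosolic and dual members took 0.346% to 0.357% of all counts in vehicle. Their share was 0.429% to 0.4475% at the high dose of dried ginger, 0.455% to 0.465% at that of Scutellariae Radix and 0.488% at that of Coptidis Rhizoma, above every vehicle library. The mitochondrial members together took 0.06224% to 0.0640% in vehicle. Their share lay below every vehicle library at the high dose of dried ginger (0.0582% to 0.0605%) and Scutellariae Radix (0.0602% to 0.0609%). It also did at the high and medium dose of Sayeok-tang (0.0599% to 0.0619%). The same held at all doses of Coptidis Rhizoma (0.0584% to 0.0586%) and Bojungikgi-tang (0.0605% to 0.06222%, just under the lowest vehicle library). All counts include those of the mitochondrial genome, 8.58% to 9.38% in vehicle and 9.10% to 9.55% at the high dose of Scutellariae Radix. They took 9.70% to 11.3% in the other replicated groups named. Coptidis Rhizoma had 9.92%, 15.9% and 15.0% at high, medium and low dose. Its scaled median log ratios to vehicle over these members were -0.0873, -0.0257 and -0.0407. How far the mitochondrial genome counts moved these shares was not tested.

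Other genes of the same pathways were counted in the high against low comparisons, to be read beside the shares of all genes that rose and fell: 16.8% and 16% in dried ginger, 15.5% and 15.6% with Scutellariae Radix. Of 21 genes listed as ATF4 and its targets outside the synthetases, 19 rose and none fell in dried ginger, with a median log2 change of 0.91, and 19 rose with Scutellariae Radix (median 1.12). In fresh ginger 16 rose (1.72% of all genes did), in Sayeok-tang 12 (3.82%), in Bojungikgi-tang 5 (0.257%) and in Pinelliae Tuber none (0.0603%). STC2, a secreted stress-induced glycoprotein, rose by 2.19 ± 0.06 and 2.16 ± 0.05 in dried ginger and Scutellariae Radix (SE, log2 scale). TRIB3, a pseudokinase induced by ATF4, rose by 1.70 ± 0.055 and 2.08 ± 0.04, and ASNS, which makes asparagine, by 1.205 ± 0.04 and 1.199 ± 0.03. These changes were larger than that of any synthetase in the same comparisons. ATF4 itself rose by 0.41 and 0.47.

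Of 9 eIF2 kinases, phosphatase subunits and GCN2 partners, 3 rose and 2 fell in dried ginger and 5 rose and 2 fell with Scutellariae Radix. PPP1R15A, the inducible eIF2 phosphatase subunit, rose by 0.70 ± 0.07 and 1.06 ± 0.05, and IMPACT, an inhibitor of GCN2, by 0.60 ± 0.06 and 0.54 ± 0.06. Among 14 genes of tRNA maturation and export, 4 rose and 4 fell in dried ginger and 4 rose and 6 fell with Scutellariae Radix. XPOT, which exports tRNAs from the nucleus, rose by 0.48 ± 0.04 and 0.52 ± 0.03, while POP1 and ELAC2, which take part in trimming tRNA precursors, fell by 0.46 and 0.28 in dried ginger and by 0.47 and 0.31 with Scutellariae Radix. XPOT also rose in fresh ginger (0.31) and Sayeok-tang (0.23).

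Of 9 cytosolic elongation and termination factors, 5 rose and 2 fell in dried ginger (median 0.13) and 4 rose and 3 fell with Scutellariae Radix (median 0.07). EEF1A1, which delivers loaded tRNAs to the ribosome, rose by 0.25 ± 0.05 and 0.13 ± 0.03. Of 14 mitochondrial translation factors and tRNA amidation genes, 2 rose in each extract, and 1 fell in dried ginger and 2 with Scutellariae Radix, shares no larger than those over all genes. MTIF2, a mitochondrial initiation factor, rose by 0.13 ± 0.04 and 0.26 ± 0.04, and TSFM, a mitochondrial elongation factor, fell by 0.15 and 0.17. The median change of this list was 0.01 in dried ginger and 0.00 with Scutellariae Radix.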

How the data were processed

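Per the labels' protocols, a directional mRNA kit was used and both ends were sequenced for 100 bases. Per the submitters' processing notes, the tools were FastQC 0.11.9, Trim Galore 0.6.5, STAR 2.7.3a and RSEM 1.3.3 with a GRCh38 build. No annotation release or strand setting is named in the sources used here. The authors deposited RSEM expected counts per gene, not normalised, of which 24.4% of non-zero values were not whole. They were rounded. The table has 269 value columns, of which 60 were used and the other 209 were not.

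Each fit held both extracts of a labelled set and the 3 vehicle libraries. Low counts were filtered with filterByExpr (minimum count 10), libraries scaled by TMM, and genes tested with edgeR 4.0.16 (quasi-likelihood F-test, R 4.3.3), with Benjamini-Hochberg adjustment over all genes tested in each of 28 comparisons. Levels per kb used GENCODE 29 exon lengths. Alternatives were DESeq2 1.42.0, RLE and upper-quartile scaling, no filter, a joint fit of 60 libraries, a block for the replicate number, and fits without each library.

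Members named with values in every library were those with the largest called changes between high and low dose of each replicated extract (4 cytosolic or dual and 3 mitochondrial for dried ginger, up to 2 and 1 for the others), GARS1, KARS1, both histidine enzymes and both phenylalanine subunits. RARS1 and YARS2 were added after their values were seen. From other lists, up to 3 called genes with the lowest p were named, besides ATF4 and DDIT3. The members and lists were chosen with earlier results of these data known. Whether replicates were independent cultures is not in the labels, and p-values therefore rest on a spread that may be technical.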

Additional observations from a re-analysis of the deposited data

Results flagged for a closer look

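For 8 members, the rise between low and high dose was larger in dried than in fresh ginger by a test of the difference itself (edgeR quasi-likelihood test of the interaction, chosen after seeing the data, where 11.2% of genes were called). They were GARS1 (0.37 ± 0.05, SE, log2 scale), WARS1 (0.36 ± 0.06), AARS1 (0.32 ± 0.06), SARS1 (0.31 ± 0.06), MARS1 (0.30 ± 0.05), CARS1 (0.29 ± 0.05), IARS1 (0.22 ± 0.06) and EPRS1 (0.17 ± 0.05). No mitochondrial member was among them. Adjusted p ran from 6.50e-06 for GARS1 to 0.0389 for EPRS1.

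The dose change of Scutellariae Radix differed from that of Pinelliae Tuber for 16 members, where 18.3% of genes did. In 11 cytosolic or dual members it was higher, from LARS1 (0.19 ± 0.04) to SARS1 (0.75 ± 0.05). In HARS1, RARS1, EARS2, IARS2 and YARS2 it was lower, by -0.15 to -0.28. The doses of these 2 extracts were not the same.

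The same test between Sayeok-tang and Bojungikgi-tang called none of the 35 members, where 0.275% of genes were called: GARS1 differed by 0.09 ± 0.05 (adjusted p = 0.7245) and SARS1 by 0.10 ± 0.05 (adjusted p = 0.6946).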

How the results depend on the processing

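Of 54 member changes called between high and low dose, 52 kept their call with DESeq2, 53 with RLE scaling, 51 with upper-quartile scaling, 53 without the filter, 52 in 1 fit of all libraries and 54 with the replicate number as a block. None changed sign, there or in 322 refits without 1 library, 32 of which lost a call. For the 102 changes called against vehicle, 147 of 603 such refits lost the call. Other scaling moved the median change of all genes by at most 0.02 (log2).

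Counts of called members that moved by over 1.5 times were these. Between high and low dose, DESeq2 gave 2 for Bojungikgi-tang (not 1) and 1 for Pinelliae Tuber (not 0), and for Sayeok-tang against Bojungikgi-tang DESeq2 and the fit of all libraries gave 2 (not 1). Against vehicle at the high dose, the fit of all libraries gave 1 for Pinelliae Tuber. At the medium dose it gave 1 for Bojungikgi-tang, 2 for Pinelliae Tuber (2 also with upper-quartile scaling) and 4 for dried ginger, where DESeq2 gave 2 and the block 3 (not 0). At the low dose, fresh ginger had 5 with DESeq2 and 6 in the fit of all libraries (not 3). Dried ginger had 1 with RLE, 2 with the block, 3 with DESeq2 and 4 in the fit of all libraries (not 0). Scutellariae Radix had 2 without the filter, with the block and with DESeq2 (not 1). At 2-fold Coptidis Rhizoma had 0 (not 7). The cause was not tested.

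Leaving out 1 library gave 7 to 12 members for Sayeok-tang high against vehicle, 0 to 1 for Bojungikgi-tang, 7 to 14 for fresh ginger and 0 to 3 for Pinelliae Tuber. At the medium dose it gave 2 to 5 for Sayeok-tang, 0 to 3 for Bojungikgi-tang and Pinelliae Tuber and 0 to 5 for Scutellariae Radix. At the low dose it gave 1 to 5 for Sayeok-tang, 0 to 6 for Bojungikgi-tang, 0 to 3 for fresh ginger, 1 to 3 for Pinelliae Tuber and 0 to 2 for Scutellariae Radix. At the medium dose the count moved by over 1.5 times without vehicle replicate 3 (Sayeok-tang, Pinelliae Tuber, Scutellariae Radix), 2 (Bojungikgi-tang, Pinelliae Tuber) or 1 (Scutellariae Radix), and without 1 of the extract's own libraries in each of these 4. At the low dose this held without vehicle replicate 3 (fresh ginger, Scutellariae Radix), 2 (Bojungikgi-tang, fresh ginger, Pinelliae Tuber) or 1 (Pinelliae Tuber), and without 1 of the own libraries of these and of Sayeok-tang. Between high and low dose the range was 0 to 0 for Bojungikgi-tang, and for Sayeok-tang against Bojungikgi-tang 0 to 1.

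In no comparison was the correlation of same-numbered libraries' deviations over 0.1 in every pair, so the numbers were not taken to pair the samples. It was above 0 in every pair for some, such as high against low dose of fresh ginger (0.0559 to 0.364) and dried ginger (0.0617 to 0.335). The replicate block changed no call between doses. Depth limits the members of low abundance: PARS2, at 5.69 to 8.31 CPM, and FARS2, at 8.86 to 12.5 CPM, had standard errors of 0.12 and 0.09 in dried ginger, against 0.04 for GARS1.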
